A study of Mus musculus with 66 samples.

Results

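The comparison described here sets WT p2 progenitors of the NFIA-positive gate at day 11 (D11) against those of the same gate at day 9 (D9). Its members are the 5 libraries that carry these labels, replicates 2 and 3 at D11 and replicates 1, 2 and 3 at D9, of 66 libraries and 26 groups in the series. Every gene with a normalised read count of 10 or more in 2 or more of these 5 libraries was tested, which gave 13620 of the 24410 genes in the table.

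The series followed a temporal program of ventral spinal cord progenitors made from mouse embryonic stem (ES) cells, in WT and MUT cells, in 3 progenitor domains (p1, p2 and pM) and over 4 days. Both groups used here are WT and went through the same culture. ES cells were given bFGF at 10 ng/ml, then CHIR99021, an inhibitor of the kinase GSK3β, at 5 µM from day 2, and from day 3 retinoic acid (RA) at 100 nM plus SAG, which activates Smoothened, at 10 nM. RA was left out from day 5, and SAG stayed at 10 nM until collection at D9 or D11. Cells were fixed with glyoxal, stained for intracellular proteins and sorted as populations of 10000 to 15000 cells, and polyadenylated RNA was sequenced. NFIAp marks cells above the gate on the NFIA protein, and NFIAn marks cells below it. The labels name neither the ES cell line nor the separate cultures behind the replicates, and the p-values below therefore reflect the scatter among these 5 and related libraries alone, which may be technical.

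In the ventral spinal cord, p2 progenitors express Foxn4, Vsx1, Nkx6-1, Irx3 and Pax6 and first give rise to V2 interneurons. Later in development the same region produces astrocytes. The nuclear factor I proteins NFIA and NFIB, together with SOX9, are known for the switch of spinal cord progenitors from making neurons to making glia, and the genes of mature astrocytes follow gradually.

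The 5 libraries held 21.4 to 26.75 M (mega) recovered reads and 14307 to 15244 detected genes. The sum of deposited values set D9 replicates 2 and 3 apart, at 28.76 and 26.59 M, from 23.29 and 21 M in D11 replicates 2 and 3 and 21.32 M in D9 replicate 1. Ribosomal protein genes took 7.578% and 4.72% of the values in the D11 libraries, against 5.21%, 9.874% and 7.874% in D9 replicates 1, 2 and 3. The part of these differences in the results below was not tested, and counts are therefore also given without the 18 libraries of high total in the series, which leaves replicate 1 alone at D9.

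The markers of the sorted domain matched the p2 label. Foxn4, a transcription factor that marks p2, averaged 323.6 ± 9.912 normalised read counts at D11 (SD, n = 2) and 363 ± 53.44 at D9 (SD, n = 3). In WT NFIAp libraries of D11 it averaged 16.18 ± 22.88 in p1 and 9.962 ± 8.56 in pM (SD, n = 2 each). Vsx1, expressed as p2 cells commit to V2 fates, averaged 487.5 ± 48.51 at D11 (SD, n = 2) and 596.8 ± 199.6 at D9 (SD, n = 3), against 18.5 ± 3.277 in p1 and 14.37 ± 14.79 in pM at D11 (SD, n = 2 each). Olig2, which marks motor neuron progenitors, averaged 67.38 ± 49.76 in p2 at D11, against 1761.7 ± 938.9 in pM (SD, n = 2 each). Dbx1, a marker of p0 and p1, was present as well, at 839.4 ± 112.4 in p2, against 4645.9 ± 1963 in p1 (SD, n = 2 each). As for the gate, Nfia RNA at D9 averaged 724.3 ± 364.1 in NFIAp p2 cells, against 234.6 ± 198.2 in NFIAn p2 cells (SD, n = 3 each). The libraries of the 2 gates overlapped, at 408.1 to 1122.4 in NFIAp and 77.77 to 457.4 in NFIAn, and this difference was not tested.

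Between these days 5 of 22 tested genes of astrocyte metabolism and transport rose, while 7 of 29 genes of mitosis and 4 of 16 genes of early embryonic timing fell. None of 10 p2 identity genes passed the test, a count that says little where 1.64% of all genes tested were called. Called genes numbered 223, or 1.64% of those tested, at a limma adjusted p (Benjamini-Hochberg over all genes tested) under 0.05. Of these, 127 rose (0.932%) and 96 fell (0.705%), with median log2 differences of 2.46 and -1.34, and the median over all genes tested was 0.035. These shares are the background for every count of called list members below. The filter could be met by the libraries of 1 day alone. Of the called rises 37 had a D9 mean below 10, and of the called falls 13 had a D11 mean below 10. In simulated libraries of this design the share of false calls was above the threshold of 0.05. The libraries of the 2 days did not overlap for 222 of the 223. Over all genes tested, the D11 libraries lay above all D9 libraries for 2535 genes (18.6%) and below them for 1769 (13.0%), and 1726 genes (12.7%) had an unadjusted p under 0.05. The number of calls depended on single libraries: it was 31 without D11 replicate 2, 102 without D11 replicate 3, 93 without D9 replicate 2, 100 without D9 replicate 3, and 30 once the libraries of high total were left out. The calls that held whichever of the 5 libraries was left out numbered 21, of which 12 rose and 9 fell. The split by direction also moved, to 108 higher and 105 lower under TMM scaling and to 262 higher and 123 lower with a pseudocount of 8.

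The largest rises and falls named below were taken only among called genes whose libraries did not overlap between the days. Of the named genes Actg2, the smooth muscle γ-actin, rose most, and it lies on chromosome 6 from 83512905 to 83536265 (GRCm38, minus strand). It had 220.3 and 672.3 normalised read counts in the D11 libraries, against 0.9496, 0 and 0 in D9 replicates 1, 2 and 3. Both D11 libraries stood far above all D9 libraries, which held 1 read in all against 1103 reads at D11. The ratio of summed reads, each per total reads of its group, was 1390, with a 95% interval of 250 to 55100 that covers counting error only. The limma adjusted p was 1.6e-06. Other genes of contractile cells are described with the marker lists at the end.

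Thrsp, a small nuclear protein known for its part in the induction of fatty acid synthesis in liver, was nearly silent at D9. It had 521.8 and 313.4 normalised read counts in the D11 libraries, against 13.29, 1.252 and 0 in D9 replicates 1, 2 and 3. The groups did not overlap, and the log2 difference was 6.99 ± 1.15 (SE; limma adjusted p = 0.00017), a call that held without any 1 of the 5 libraries. Cbs, the enzyme that condenses homocysteine with serine and is found in astrocytes, had 577.9 and 245 at D11, against 0, 8.762 and 19.89 at D9. Its D11 libraries were likewise above all D9 libraries (limma adjusted p = 0.016), but the call was lost without D11 replicate 2, D11 replicate 3 or D9 replicate 1.

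Timp4, a secreted inhibitor of matrix metalloproteinases, had 505.7 and 155.5 normalised read counts at D11, against 0.9496, 5.007 and 0 at D9. Its log2 difference was 6.95 ± 1.25 (limma adjusted p = 0.00073), and the call was lost without D11 replicate 2. Gper1, a G protein-coupled receptor that responds to estrogen, did not overlap between the days, at 296.1 and 349.5 at D11, against 4.748, 1.252 and 1.243 at D9. It rose by 6.71 ± 1.40 on the log2 scale (limma adjusted p = 0.005), and that call was lost without either D11 library. Apcdd1, a membrane inhibitor of Wnt signals that is a known target of NFIA and SOX9 in the spinal cord, had 474.5 and 252.1 at D11, against 41.78, 7.51 and 0 at D9. The log2 difference of Apcdd1 was 5.60 ± 1.11 (limma adjusted p = 0.0025), with the call lost without D11 replicate 2 or D9 replicate 3.

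Several genes of this rank rested on few reads at D9, and those below passed the filter through the D11 libraries alone. The same held for Actg2, Timp4 and Gper1 above, whose D9 values were all below 10. It also held for Neurod6, Lhfpl3, Slc32a1, Slc39a12 and Nwd1, described later. Among the falls, Hk3, Muc4, Arg1, Sall4, Meox1 and Cga had D11 values below 10 and passed through the D9 libraries alone. Fam198a, Cxcl16, Kcna1 and Zbtb8b were not called by edgeR's quasi-likelihood test on the recovered reads (adjusted p = 0.11, 0.078, 0.12 and 0.074). Limma on the 5 libraries alone called none of them, nor Calb2 (adjusted p = 0.071). Fam198a had 55.3 and 58.9 normalised read counts at D11 and 0 in all 3 D9 libraries, so its level was at least 16.6-fold higher, taking 3 reads per library as the floor (limma adjusted p = 0.0015, lost without D11 replicate 2). Cxcl16, a chemokine made as a membrane protein, had 27.65 and 102.9 at D11 and 0 in all D9 libraries, which is at least 18.9-fold higher by the same floor (limma adjusted p = 0.0061, lost without D11 replicate 3). Kcna1, a voltage-gated potassium channel subunit, had 80.27 and 61.26 at D11, against 0, 0 and 1.243 at D9. That is a ratio of summed reads of 212 with a counting interval of 37.6 to 8440 (limma adjusted p = 0.0088, lost without either D11 library). Calb2, the calcium-binding protein calretinin, had 38.35 and 189.3 at D11, against 2.849, 0 and 0 at D9, a ratio of 120 with a counting interval of 40.5 to 584 (limma adjusted p = 0.0088, lost without D11 replicate 3 or D9 replicate 2). Zbtb8b, a zinc finger gene, had 76.7 and 25.92 at D11, against 0.9496, 0 and 0 at D9, and its call (limma adjusted p = 0.049) was lost without any 1 of the 5 libraries.

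**Figure D1:**
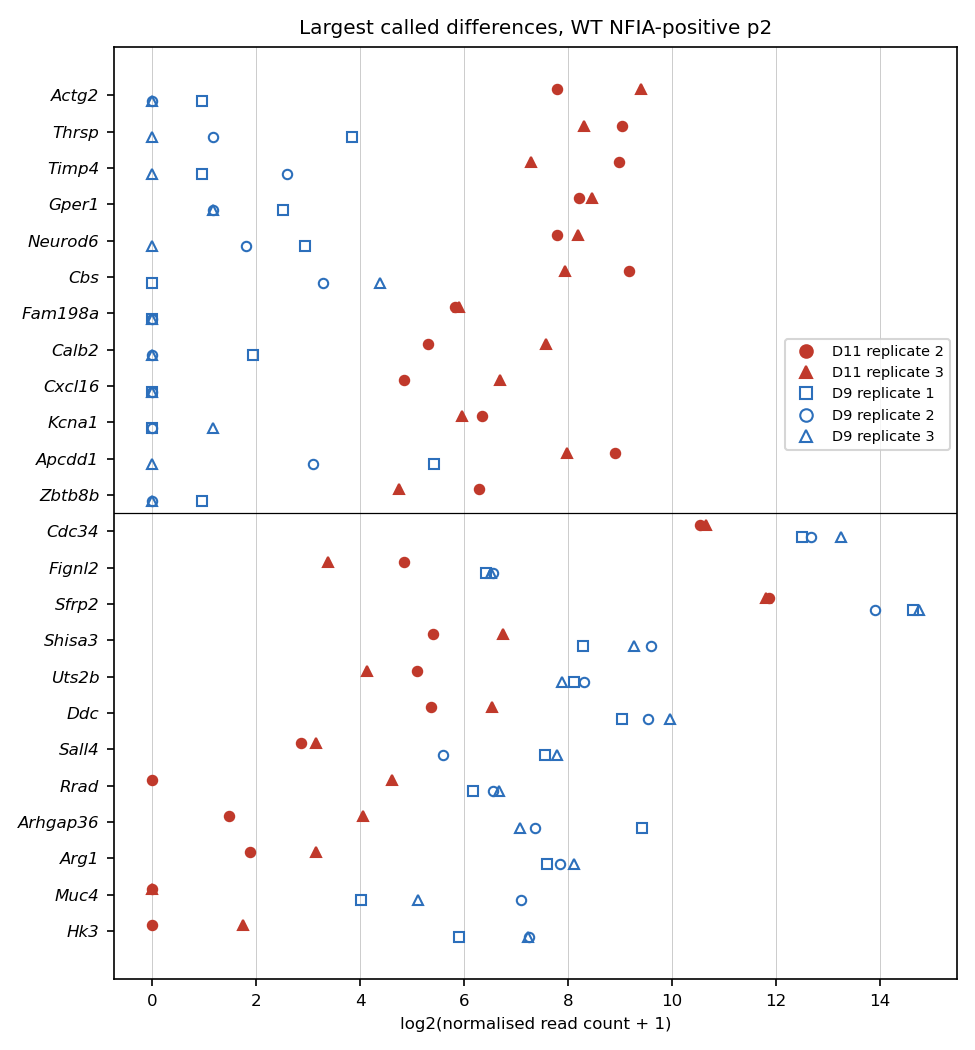
Normalised read counts, as log2(value + 1) on the horizontal axis, of the 12 genes with the largest called rises (upper rows) and the 12 with the largest called falls (lower rows). Filled red symbols are the D11 libraries, drawn above the open blue symbols of the D9 libraries of the same gene. The 24 genes were chosen only among those whose libraries did not overlap between the 2 days.

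Among the genes that fell, Ddc had the smallest adjusted p of the whole comparison. Ddc encodes aromatic L-amino acid decarboxylase and lies on chromosome 11 from 11814101 to 11898144 (GRCm38, minus strand). It had 40.14 and 91.89 normalised read counts in the D11 libraries, against 524.2, 746 and 991.8 in D9 replicates 1, 2 and 3. All 3 D9 libraries were above both D11 libraries, and Ddc fell by 3.56 ± 0.30 on the log2 scale (limma adjusted p = 1.5e-11). Across the stages of WT p2 its mean was 131.2 ± 23.37 at D5, 350.9 ± 14.79 at D7, 637.7 ± 98.88 in D9 NFIAn cells, 754 ± 233.9 in D9 NFIAp cells (SD, n = 3 each) and 66.01 ± 36.59 at D11 (SD, n = 2), so the D11 level was the lowest of the 5 groups.

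Sfrp2, a secreted modulator of Wnt signals on chromosome 3 from 83766321 to 83774316 (GRCm38, plus strand), followed the same course at a high level. It had 3712.1 and 3564 normalised read counts at D11, against 25492.1, 15327.1 and 27448.5 at D9, and fell by 2.60 ± 0.40 on the log2 scale (limma adjusted p = 6.8e-05). Arg1, the arginase that splits arginine into urea and ornithine, had 2.676 and 7.854 at D11, against 192.8, 229.1 and 274.7 at D9. Arg1 fell by 5.34 ± 0.77 (limma adjusted p = 2.9e-05), and the calls of Sfrp2, Arg1 and Ddc all held without any 1 of the 5 libraries.

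Hk3, a hexokinase, had 0 and 2.356 normalised read counts at D11, against 58.87, 150.2 and 149.1 at D9. The summed reads at D9, per total reads of the group, were 79.6 times those at D11, with a counting interval of 27 to 388 (limma adjusted p = 0.0011, lost without D11 replicate 2). Arhgap36, a GTPase-activating protein that can activate Hedgehog signals, had 1.784 and 15.71 at D11, against 682.7, 162.7 and 133 at D9, with the highest value in D9 replicate 1. It fell by 5.18 ± 1.13 (limma adjusted p = 0.0081, lost without D11 replicate 2). Shisa3, which holds back the maturation of Wnt and FGF receptors, had 41.03 and 106 at D11, against 312.4, 774.8 and 616.5 at D9, and fell by 2.99 ± 0.59 (limma adjusted p = 0.0025, lost without D11 replicate 2).

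Of the remaining named falls, Fignl2, a relative of the microtubule-severing protein fidgetin, had 27.65 and 9.424 at D11, against 84.51, 92.63 and 90.73 at D9 (log2 difference -2.38 ± 0.52, limma adjusted p = 0.0073, lost without D11 replicate 3). Muc4, a mucin, was at 0 in both D11 libraries, against 15.19, 135.2 and 33.56 at D9, which is at least 24.4-fold lower at the floor of 3 reads per library (limma adjusted p = 0.011, lost without D11 replicate 2, D11 replicate 3 or D9 replicate 2). Rrad, a GTPase that restrains calcium channels, had 0 and 23.56 at D11, against 71.22, 92.63 and 100.7 at D9 (log2 difference -4.15 ± 1.01, limma adjusted p = 0.017, lost without D11 replicate 2, D9 replicate 2 or D9 replicate 3). The calls of Uts2b, a urotensin peptide, and Cdc34, a ubiquitin-conjugating enzyme, were lost whichever library was left out, at limma adjusted p of 0.036 and 0.047. Uts2b had 33 and 16.49 at D11, against 276.3, 315.4 and 233.7 at D9, without overlap. Rrad, Uts2b and Cdc34 were not called by edgeR (adjusted p = 0.14, 0.07 and 0.085). Fignl2, Muc4 and Rrad were not called by limma on the 5 libraries alone (adjusted p = 0.12, 0.071 and 0.1). Cdc34 had 1483.2 and 1612.4 at D11, against 5798.1, 6505.1 and 9686.8 at D9, and has a close copy in the mouse genome, so its level is uncertain where reads could be shared.

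The nuclear factor I family was higher at D11 in the fitted values, yet none of its 4 genes passed the test. Nfib had 2651.6 and 1752.2 normalised read counts at D11, against 661.8, 383 and 433.8 at D9. The groups did not overlap, and the log2 difference was 2.17 ± 0.66 (limma adjusted p = 0.081). Nfia, whose protein defined the gate on both days, had 1815 and 1095.6 at D11, against 1122.4, 408.1 and 642.6 at D9, so its libraries overlapped (log2 difference 1.08 ± 0.66, limma adjusted p = 0.54). Nfix had 110.6 and 56.55 at D11, against 10.45, 1.252 and 14.91 at D9 (log2 difference 3.43 ± 1.20, limma adjusted p = 0.15). Nfib was called by edgeR's quasi-likelihood test on the recovered reads (adjusted p = 0.026), by limma on the 5 libraries alone (adjusted p = 0.0049), by DESeq2 and with a pseudocount of 8, which also called Nfix. It was not called when any 1 of the 5 libraries was left out. Sox9, which acts ahead of NFIA in glial induction, had 6085.4 and 5224.3 at D11, against 7082.8, 3609.9 and 4614.7 at D9, with a log2 difference of 0.20 ± 0.54 (limma adjusted p = 0.93).

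Among 19 tested transcription factors of late progenitors, Hopx alone was called. Hopx is a small homeodomain protein without DNA binding that marks late radial glia, and it lies on chromosome 5 from 77086988 to 77115121 (GRCm38, minus strand). It had 8454.3 and 5803.1 normalised read counts at D11, against 744.5, 829.9 and 585.4 at D9. Every D11 library was above every D9 library, and Hopx rose by 3.30 ± 0.61 on the log2 scale (limma adjusted p = 0.0011, lost without D11 replicate 2). Along the stages its mean was 33.54 ± 3.282 at D5, 30.32 ± 13.2 at D7, 181.2 ± 46.42 in D9 NFIAn cells and 719.9 ± 124.1 in D9 NFIAp cells (SD, n = 3 each), and then 7128.7 ± 1874.7 at D11 (SD, n = 2). The list's median log2 difference was 0.32, and 8 of its members had D11 libraries above all D9 libraries, where 18.6% of all genes tested did.

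Genes of astrocyte metabolism, transport and coupling mostly had a fitted difference above 0, as 20 of 22 did. Of 30 genes on this list 22 were tested, 5 rose, none fell, and the list's median log2 difference was 0.78, against 0.035 over all genes tested. D11 libraries lay above all D9 libraries for 12 of the 22 and below them for none, where 18.6% and 13.0% of all genes tested did. The number of called members was 1 without D11 replicate 2, 3 without D11 replicate 3, 2 without D9 replicate 2 or D9 replicate 3, and 1 once the high-total libraries were left out. The other 8 genes of the list were below the filter in these libraries, among them Gfap and Aqp4, the intermediate filament and water channel of mature astrocytes. Gfap had 0.8919 and 0 normalised read counts at D11 and 0 in all D9 libraries, and Aqp4 had 0 and 49.48 at D11, against 0, 0 and 3.729 at D9.

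Aldoc, the aldolase form of brain and astrocytes, was the clearest member. It had 7320.7 and 5047.6 normalised read counts at D11, against 777.7, 428.1 and 459.9 at D9. The D11 libraries lay well above all D9 libraries, and Aldoc rose by 3.50 ± 0.42 on the log2 scale (limma adjusted p = 4.3e-07), a call that held whichever library, or all high-total libraries, were left out. Its mean was 856.6 ± 149.3 at D5, 364.3 ± 21.55 at D7 and 235.3 ± 76.38 in D9 NFIAn cells (SD, n = 3 each). In D9 NFIAp cells the Aldoc mean was higher again, at 555.2 ± 193.3 (SD, n = 3). The libraries of the 2 D9 gates did not overlap, at 171.3 to 319.8 in NFIAn and 428.1 to 777.7 in NFIAp. That difference was not tested. In bulk libraries such as these, more cells of a type and more RNA per cell cannot be told apart.

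Aldh1l1, a folate enzyme used as a general astrocyte marker, had 1477 and 969.9 at D11, against 100.7, 86.37 and 27.34 at D9. It rose by 4.25 ± 1.15 on the log2 scale (limma adjusted p = 0.041), and the call held only when D9 replicate 1 was the library left out. Mt3, the metallothionein of the brain, had 627 and 259.2 at D11, against 36.08, 37.55 and 33.56 at D9 (log2 difference 3.46 ± 0.78, limma adjusted p = 0.009, lost without D11 replicate 2). Sparcl1, a matrix protein that astrocytes secrete, was even within each day, at 4983.9 and 5338.9 at D11, against 1100.6, 776.1 and 788 at D9 (log2 difference 2.56 ± 0.61, limma adjusted p = 0.015, held only without D9 replicate 1). Mt1, another metallothionein, was the fifth called member, at 7254.7 and 3150.1 at D11, against 1203.1, 1425.7 and 1444.2 at D9.

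Members that did not pass were not all higher. The gap junction gene Gja1 had 986.4 and 1778.1 at D11, against 2405.3, 1214.2 and 2578.9 at D9, and glutamine synthetase (Glul) had 3095.8 and 2128.4 at D11, against 2573.3, 2503.4 and 2542.9 at D9. For both, the days overlapped. Mlc1, a membrane protein of astrocyte endfeet, had 788.4 and 646.4 at D11, against 222.2, 97.63 and 73.33 at D9, without overlap but with a limma adjusted p of 0.26.

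Genes of the radial glial core gave 2 rises among 20 tested, where 0.932% of all genes tested were called higher, with a list median of -0.06. The fitted difference was above 0 for 10 and below 0 for 10. D11 libraries lay above all D9 libraries for 2 and below them for 5, where 18.6% and 13.0% of all genes tested did. Slc1a3, the glutamate-aspartate transporter of radial glia and astrocytes, had 10051.7 and 7797.9 at D11, against 3300.7, 2025.3 and 2366.4 at D9 (log2 difference 1.82 ± 0.39, limma adjusted p = 0.0062, lost without D11 replicate 2). Ttyh1, a membrane protein of neural progenitors and glia, had 12272.5 and 9385.2 at D11, against 4065.1, 3955.4 and 3549.6 at D9 (log2 difference 1.48 ± 0.35, limma adjusted p = 0.014, held only without D9 replicate 1). The mean of Slc1a3 was 277.8 ± 28.01 at D5, 969 ± 24.06 at D7, 1429.3 ± 816.7 in D9 NFIAn cells and 2564.1 ± 660.3 in D9 NFIAp cells (SD, n = 3 each). The D9 NFIAn libraries, at 825.3 to 2358.5, overlapped both those of D7 (941.7 to 987) and those of D9 NFIAp (2025.3 to 3300.7). The neural stem cell factor Sox2 had 2339.4 and 1314.7 at D11, against 1979.9, 2191.7 and 1845.6 at D9, and overlapped.

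Of 11 tested genes of the neural extracellular matrix, the proteoglycan Bcan rose, with 1227.3 and 1093.2 normalised read counts at D11, against 92.11, 15.02 and 26.1 at D9 (log2 difference 5.08 ± 1.33, limma adjusted p = 0.033, held only without D9 replicate 1). The lipid exporter Abca1, 1 of 15 tested genes of lipid handling, was the single call of its list and rose. It had 933.8 and 779.1 at D11, against 228.8, 182.7 and 95.7 at D9 (log2 difference 2.42 ± 0.47, limma adjusted p = 0.0022, lost without D11 replicate 2). Reln and Slit1, which mark positional classes of ventral astrocytes in mouse spinal cord, both had D11 libraries above all D9 libraries but did not pass. Reln had 396 and 412.3 at D11, against 207, 70.1 and 101.9 at D9 (log2 difference 1.82 ± 0.92, limma adjusted p = 0.41). Slit1 had 832.1 and 957.4 at D11, against 324.8, 189 and 220 at D9 (log2 difference 1.90 ± 0.73, limma adjusted p = 0.2).

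The oligodendrocyte genes among the fixed regulators gave no call. Olig2 had 102.6 and 32.2 at D11, against 85.46, 30.04 and 77.06 at D9, and Sox10 had 146.3 and 270.2 at D11, against 268.7, 43.81 and 312 at D9. In both cases the libraries of the 2 days overlapped. On the oligodendrocyte list, 1 of 13 tested genes rose, Lhfpl3, a membrane protein of oligodendrocyte precursors, at 49.95 and 64.4 at D11, against 0, 6.259 and 0 at D9 (log2 difference 4.90 ± 1.09, limma adjusted p = 0.0088, lost without D11 replicate 2, D11 replicate 3 or D9 replicate 3). Lhfpl3 was called neither by edgeR nor by limma on the 5 libraries alone (adjusted p = 0.19 and 0.13).

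The sequences upstream of 2 of these called genes are shown because nuclear factor I proteins bind a palindrome of TTGGC arms and also single arms, and an arm of the letters TTGGCA lies close to their annotated starts. Sequences are from RefSeq on GRCm38.p6, given 5′ to 3′ on the strand of the gene and ending before the first base of the gene, with the arm (TTGGCA, or TGCCAA when it lies on the other strand) in capitals. The Aldoc stretch is chr11:78322823-78322967 on the plus strand and the Thrsp stretch is chr7:97417731-97417800 on the minus strand.
Aldoc: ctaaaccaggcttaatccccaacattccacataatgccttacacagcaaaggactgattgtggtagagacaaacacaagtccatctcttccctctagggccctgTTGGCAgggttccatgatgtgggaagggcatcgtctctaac
Thrsp: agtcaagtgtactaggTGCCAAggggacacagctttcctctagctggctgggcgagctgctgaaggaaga
In the 250 bases before the start, this arm on either strand was present in 19 of 94 called rises with a window (20.2%), in 13 of 80 called falls (16.2%), and in 1208 of all 10273 tested genes with a window (11.8%). The full palindrome (TTGGC, any 5 bases, then GCCAA) was in 0 of the 94 called rises, 0 of the 80 called falls and 4 of all 10273 windows. A match of letters is not a measurement of binding.

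All 29 genes of the list for G2 and M phase were tested and had a fitted difference below 0. Of these 7 fell, none rose, and the median log2 difference was -1.12. For 28 of the 29 the D11 libraries lay below all D9 libraries, where 13.0% of all genes tested did. The number of called members rested on the libraries used: it was 0 without D11 replicate 2, 2 without D11 replicate 3, 4 without D9 replicate 1, 1 without D9 replicate 2, 3 without D9 replicate 3, 1 once the high-total libraries were left out, and 15 when same-numbered libraries from one genotype and day were treated as correlated. The median stayed between -1.35 and -0.85 over these settings.

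Cdk1, the kinase that drives entry into mitosis, had 5891.9 and 7115.4 normalised read counts at D11, against 13403.2, 16625.1 and 15315.7 at D9. The days did not overlap, and Cdk1 fell by 1.22 ± 0.29 on the log2 scale (limma adjusted p = 0.015, held only without D9 replicate 1). Ccnb1, its cyclin partner, had 5384.4 and 11150.7 at D11, against 21828.7, 15339.6 and 17878.5 at D9 (log2 difference -1.23 ± 0.34, limma adjusted p = 0.045, held only without D11 replicate 3). Cenpf, a kinetochore protein, had 1296.8 and 1232.2 at D11, against 3997.7, 3780.1 and 2689.5 at D9 (log2 difference -1.44 ± 0.32, limma adjusted p = 0.0091, lost without either D11 library or D9 replicate 2). Aurka, a centrosome kinase, had 2506.2 and 3732.1 at D11, against 8020.1, 6205.9 and 8212.8 at D9 (log2 difference -1.28 ± 0.35, limma adjusted p = 0.044, lost whichever library was left out). The other 3 called members were Bub1 of the spindle checkpoint, Nuf2 of the outer kinetochore and Cdc20, an activator of the anaphase-promoting complex, with limma adjusted p of 0.014, 0.0081 and 0.032.

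The D9 NFIAp cells had the highest Cdk1 level of the WT p2 stages. Its mean was 7586.3 ± 754.9 at D5, 9028.1 ± 1607.2 at D7, 8818.9 ± 2569.7 in D9 NFIAn cells, 15114.7 ± 1620.4 in D9 NFIAp cells (SD, n = 3 each) and 6503.7 ± 865.2 at D11 (SD, n = 2). Both D11 libraries lay below all D9 NFIAp libraries, and 1 of them lay within the range of the D9 NFIAn libraries, 5909.7 to 10778.8.

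S phase genes gave lower fitted values with no call. Of 26 tested, 25 had a fitted difference below 0, the median was -0.69, and the D11 libraries were below all D9 libraries for 18, where 13.0% of all genes tested were. With the high-total libraries left out, the median of the S phase list was -0.38. Pcna, the clamp of DNA polymerase, had 6746.3 and 6689 at D11, against 8203.3, 16587.6 and 12347.8 at D9 (limma adjusted p = 0.31), with the higher values in D9 replicates 2 and 3, the libraries of high total. Ccnd1, the D-type cyclin that answers to growth signals, overlapped, at 3509.6 and 3908 at D11, against 3273.2, 4080.6 and 3816.8 at D9. The cell cycle inhibitor Cdkn1a fell by 0.73 ± 0.20 on the log2 scale, a call lost whichever library was left out, with 2351 and 2726.8 at D11, against 4079.3, 4638.8 and 3958.5 at D9 (limma adjusted p = 0.04).

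The upstream sequences of Cdk1 and Cdc20 are shown because genes of mitosis are known to carry a cell cycle homology region (CHR, the letters TTTGAA or TTCGAA) and CCAAT boxes near their starts. Sequences are from RefSeq on GRCm38.p6, on the minus strand of both genes, with CHR and CCAAT letters of either strand in capitals. The Cdk1 stretch is chr10:69352939-69353162 and the Cdc20 stretch is chr4:118437353-118437593.
Cdk1: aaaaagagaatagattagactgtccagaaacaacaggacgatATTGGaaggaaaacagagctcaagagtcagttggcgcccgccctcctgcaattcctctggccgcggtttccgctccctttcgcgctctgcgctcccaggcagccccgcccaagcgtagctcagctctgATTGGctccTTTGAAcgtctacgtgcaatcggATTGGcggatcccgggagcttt
Cdc20: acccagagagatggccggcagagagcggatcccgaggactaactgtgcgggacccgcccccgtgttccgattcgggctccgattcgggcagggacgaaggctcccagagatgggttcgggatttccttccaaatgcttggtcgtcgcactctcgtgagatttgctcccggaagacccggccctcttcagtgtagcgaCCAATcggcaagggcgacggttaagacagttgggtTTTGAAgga
In the 250 bases before the start, CHR letters on either strand were present in 10 of 25 genes of the G2 and M phase list with a window (40%), in 25 of 80 called falls (31.2%) and in 14% of all tested genes with a window. CCAAT letters were present in 20 of the 25 (80%), in 37 of the 80 (46.2%) and in 41.1% of all.

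All 16 genes of early embryonic timing were tested, 4 fell, none rose, and the median was -0.83, with the D11 libraries below all D9 libraries for 10, where 13.0% of all genes tested were. The number of called members was 1 without D11 replicate 2, 2 without D11 replicate 3, 2 under scaling by total reads and 3 once the high-total libraries were left out. Hmga2, an architectural chromatin protein of young stem cells that lies on chromosome 10 from 120361275 to 120476469 (GRCm38, minus strand), had 563.7 and 531.7 normalised read counts at D11, against 2247.6, 2116.6 and 1874.2 at D9. The days were widely separated, and Hmga2 fell by 1.92 ± 0.27 on the log2 scale (limma adjusted p = 1.4e-05), a call that held without any 1 library. Sall4, a zinc finger protein of pluripotent and early embryonic cells, had 6.243 and 7.854 at D11, against 186.1, 47.56 and 218.7 at D9 (log2 difference -3.98 ± 0.72, limma adjusted p = 0.00087, lost without D11 replicate 2).

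Prtg, a membrane receptor of the young neural tube, had 64.22 and 58.12 at D11, against 175.7, 247.8 and 166.5 at D9 (log2 difference -1.65 ± 0.34, limma adjusted p = 0.0035, lost without either D11 library). These were the last steps of a long decline, since its mean was 13469.1 ± 3669.6 at D5 and 1523.8 ± 342.2 at D7 (SD, n = 3 each). Dnmt3b, a de novo DNA methyltransferase, had 36.57 and 28.27 at D11, against 157.6, 97.63 and 161.6 at D9 (log2 difference -2.04 ± 0.45, limma adjusted p = 0.0086, lost without either D11 library or D9 replicate 3). Lin28b, which blocks the maturation of let-7 microRNAs, had most of its decline behind it, with means of 1553.5 ± 435.2 at D5 and 608 ± 49.55 at D7 (SD, n = 3 each). It had 39.24 and 50.26 at D11, against 147.2, 141.4 and 26.1 at D9, where replicate 3 lay below both D11 libraries (limma adjusted p = 0.4).

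**Figure D2:**
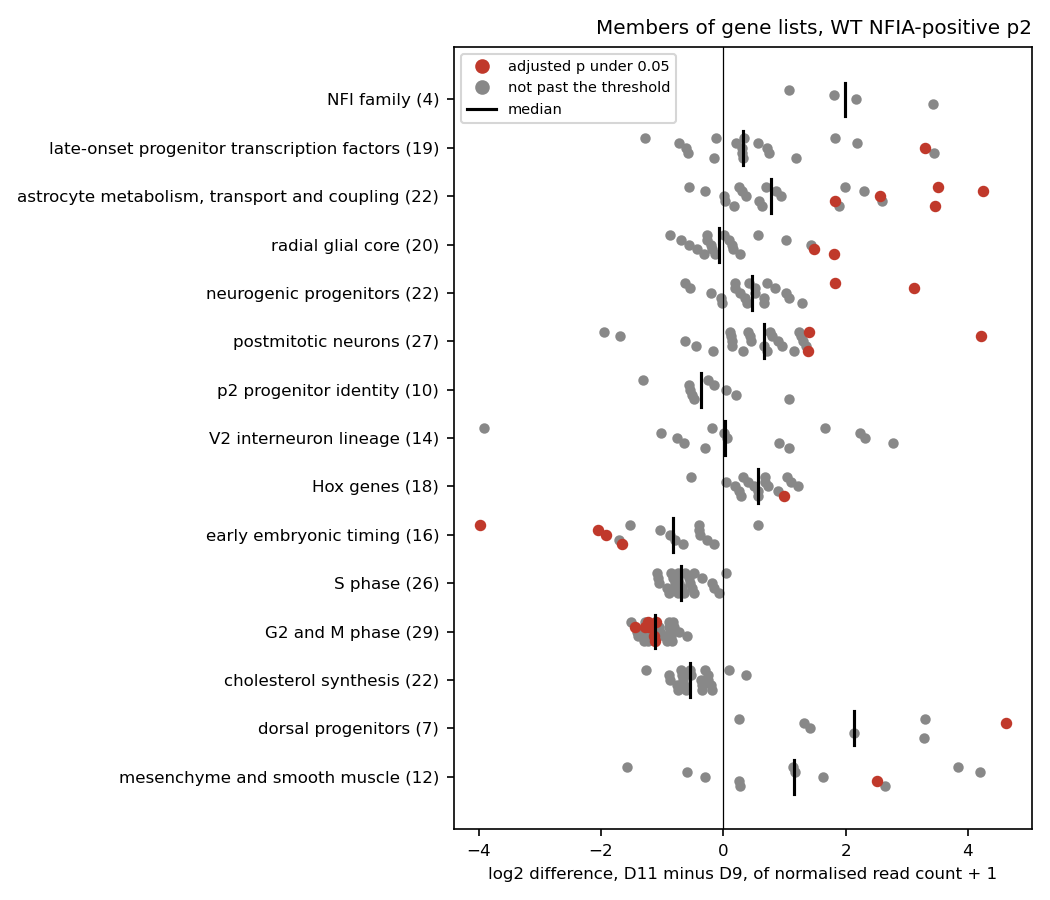
Log2 difference, D11 minus D9, of each tested member of 15 gene and marker lists, with the number of tested members in brackets. Red points passed an adjusted p of 0.05, grey points did not, and black bars are medians, which run from -1.12 for G2 and M phase to 2.14 for the dorsal progenitor markers.

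The p2 identity genes were not called, which says little for a list of 10 where 1.64% of all genes tested were called. All 10 were tested, 3 with a fitted difference above 0 and 7 below, with a median of -0.36. D11 libraries lay above all D9 libraries for 1 and below them for 2, where 18.6% and 13.0% of all genes tested did. Pax6, a homeodomain factor of ventral and dorsal progenitors, had 1160.4 and 1452.9 at D11, against 2012.1, 1936.4 and 1803.4 at D9 (log2 difference -0.56 ± 0.24, limma adjusted p = 0.29), and its days did not overlap. Nkx6-1 had 282.7 and 231.7 at D11, against 420.7, 189 and 188.9 at D9, and Irx3 had 520 and 954.2 at D11, against 1197.4, 863.7 and 996.8 at D9, both with overlap. Foxn4 had 316.6 and 330.6 at D11, against 306.7, 413.1 and 369.1 at D9, and Vsx1 had 521.8 and 453.2 at D11, against 434.9, 819.9 and 535.7 at D9, likewise with overlap. The 14 tested genes of the V2 lineage gave no call, where 1.64% of all genes tested were called, and a median of 0.03.

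Of 27 tested genes of postmitotic neurons 3 rose, none fell, and the median was 0.66, but once the high-total libraries were left out none was called and the median was 0.08. Nsg2, a vesicle protein of young neurons, had 2731 and 2616.1 at D11, against 1154.7, 1057.7 and 857.6 at D9 (log2 difference 1.39 ± 0.27, limma adjusted p = 0.0019, lost without D11 replicate 2). Rtn1, a reticulon of the neuronal endoplasmic reticulum, had 8612.2 and 10643.3 at D11, against 6017.4, 2571 and 3189.2 at D9 (log2 difference 1.38 ± 0.28, limma adjusted p = 0.0026, lost without D11 replicate 3 or D9 replicate 2). The third was Slc32a1, the vesicular transporter of GABA and glycine, at 32.11 and 56.55 at D11, against 4.748, 1.252 and 0 at D9. Over the list of postmitotic neurons, the fitted difference was above 0 for 22 of the 27. D11 libraries lay above all D9 libraries for 10 and below them for 1, where 18.6% and 13.0% of all genes tested did. The neurofilament gene Nefl had 1969.3 and 5478.7 at D11, against 9808.1, 3062.9 and 4336.3 at D9, and overlapped.

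Neurod6 and Neurod2, related bHLH factors of differentiating neurons, were nearly absent before D11. Neurod6 was called by edgeR and by limma on the 5 libraries alone (adjusted p = 0.028 and 0.013), and Neurod2 by neither (adjusted p = 0.17 and 0.1). Neurod6, on chromosome 6 from 55677822 to 55681263 (GRCm38, minus strand), had 221.2 and 290.6 normalised read counts at D11, against 6.647, 2.503 and 0 at D9. It was at 0 in all WT p2 libraries of D5, D7 and D9 NFIAn, and it rose by 6.41 ± 0.92 on the log2 scale (limma adjusted p = 2.4e-05), a call that held without any 1 library. Neurod2 had 78.49 and 75.4 at D11, against 1.899, 10.01 and 0 at D9 (log2 difference 4.62 ± 0.88, limma adjusted p = 0.0018, lost without D11 replicate 2). Among the other temporal factors, Onecut2, which marks early-born spinal neurons, had 24.08 and 23.56 at D11, against 218.4, 71.35 and 98.19 at D9, without overlap (limma adjusted p = 0.072).

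Of 22 tested neurogenic progenitor genes 2 rose, where 0.932% of all genes tested were called higher, with a median of 0.46. The fitted difference was above 0 for 17 of the 22. D11 libraries lay above all D9 libraries for 11 and below them for none, where 18.6% and 13.0% of all genes tested did. Eya2, a transcriptional cofactor, had 316.6 and 198.7 at D11, against 37.98, 21.28 and 27.34 at D9 (log2 difference 3.11 ± 0.73, limma adjusted p = 0.013, held only without D9 replicate 1). Sstr2, a somatostatin receptor, had 3467.7 and 2535.2 at D11, against 886.9, 970.1 and 684.8 at D9 (limma adjusted p = 0.047, lost whichever library was left out). The proneural gene Neurog2 had 1543.9 and 2682.8 at D11, against 934.4, 910 and 1152.1 at D9, without overlap (log2 difference 1.03 ± 0.38, limma adjusted p = 0.18).

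Hox genes leaned upward with 1 call. Of 18 tested, 17 had a fitted difference above 0, the median was 0.56, and the D11 libraries lay above all D9 libraries for 14, where 18.6% of all genes tested did. Hoxb6, a patterning gene of the trunk, had 2954 and 2675 at D11, against 1318, 1371.9 and 1547.4 at D9 (log2 difference 1.00 ± 0.22, limma adjusted p = 0.0082, lost without either D11 library). With the high-total libraries left out no member was called, and the median was 0.36.

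Cholesterol synthesis genes had lower fitted values without a call. All 22 were tested, 20 had a fitted difference below 0, and the median was -0.54, with the D11 libraries below all D9 libraries for 11, where 13.0% of all genes tested were. The median lay between -0.60 and -0.34 over the alternative settings. Crabp2, which carries RA inside the cell, was 1 of 14 tested genes of the RA pathway and fell (log2 difference -1.92 ± 0.46, limma adjusted p = 0.016, held only without D9 replicate 1). It had 4883.1 and 5091.5 at D11, against 12081.4, 23920.1 and 23200.4 at D9, after a mean of 61107.3 ± 2773.4 at D5 (SD, n = 3), the day on which RA was withdrawn.

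Among 16 tested p53 targets, Sesn1 rose while Cdkn1a and Ccng1 fell. Sesn1, a stress-induced inhibitor of growth signals through mTOR, had 1728.5 and 2495.1 at D11, against 638.1, 299.2 and 266 at D9. It rose by 2.48 ± 0.39 on the log2 scale (limma adjusted p = 8.5e-05), a call that held without any 1 library, after means between 395.9 and 550.2 in the NFIAn groups of D5, D7 and D9. Ccng1, cyclin G1, had 2976.3 and 3201.2 at D11, against 4850.4, 5789.1 and 5279.7 at D9 (limma adjusted p = 0.041, held only without D9 replicate 1). Egln3, an oxygen-sensing prolyl hydroxylase, was the called member of 21 tested genes of hypoxia and glycolysis, at 2183.4 and 1525.2 at D11, against 806.2, 687.2 and 536.9 at D9 (limma adjusted p = 0.024). Eed, a core Polycomb subunit, fell, at 1108.6 and 1287.2 at D11, against 1936.2, 2377 and 2521.8 at D9 (limma adjusted p = 0.035). The calls of Egln3 and Eed held only without D9 replicate 1.

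**Figure D3:**
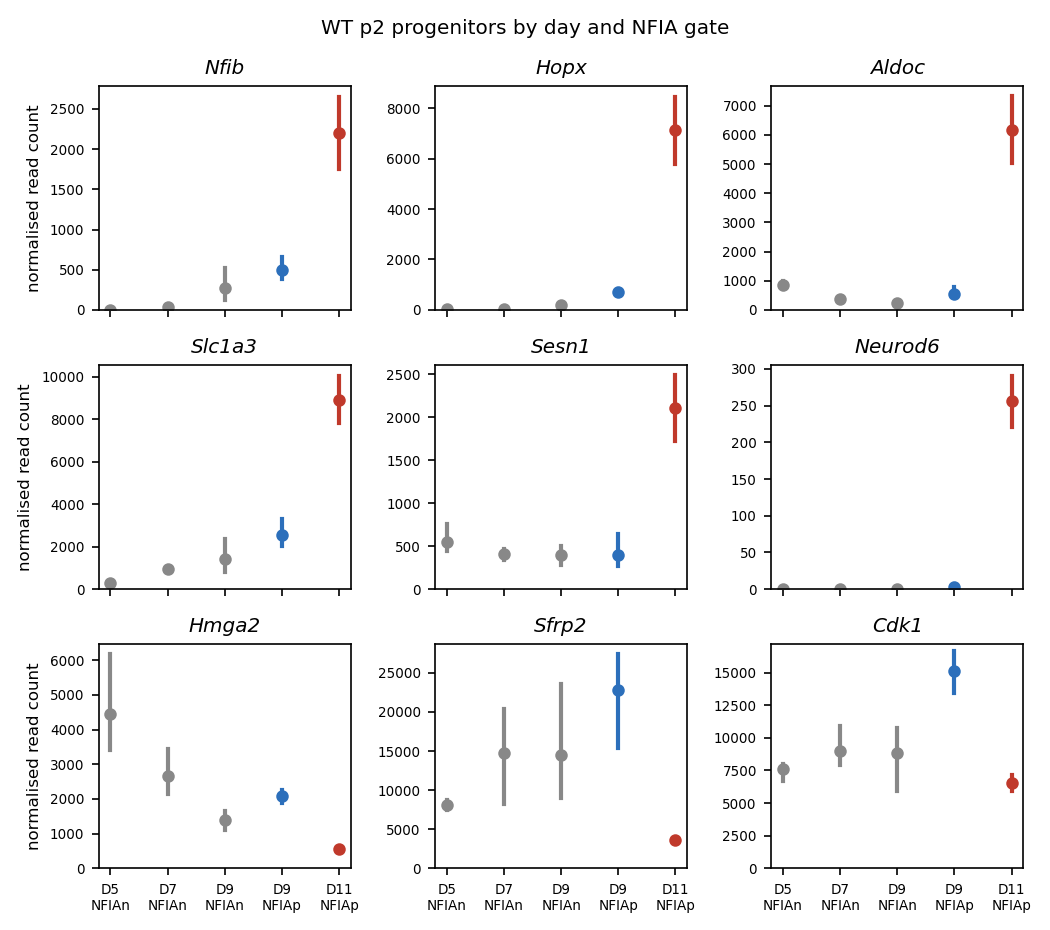
Normalised read count (vertical axis, from 0) of 9 genes in WT p2 cells by day and NFIA gate, with NFIAn groups in grey, D9 NFIAp in blue and D11 NFIAp in red. Points are means and lines run from the lowest to the highest library (3 libraries each, 2 at D11). Nfib, Hopx, Aldoc, Slc1a3, Sesn1 and Neurod6 had their highest mean at D11, and Hmga2, Sfrp2 and Cdk1 had their lowest.

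The pM domain, the progenitors of motor neurons, is the other domain with NFIAp libraries on both days, and it gave a test of whether the change differed between the domains. No gene passed for the difference of the changes, p2 minus pM, with limma over the 13620 genes (0%). At an unadjusted p under 0.05 there were 362 (2.66%), and edgeR called 1 gene and DESeq2 11. Libraries of p2 and pM with one day and replicate number deviated together, with correlations across genes of 0.277 at D11 and of 0.252, 0.172 and 0.0518 for D9 replicates 1, 2 and 3. With such libraries treated as correlated, at an estimated 0.431, limma called 16 genes. Of the 223 genes called in p2, 216 had a fitted change of the same sign in pM, where the median change was 1.89 for those that rose in p2 and -1.25 for those that fell. The share of same-sign changes over all genes tested was not worked out. Neither this count nor the later one, for the calls that held whichever library was left out, therefore has a background beside it. The p2 and pM libraries share no sample but were collected on the same days.

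Aldoc changed by 3.50 in p2 and 2.77 in pM, and its difference of 0.74 had a 95% interval of -0.41 to 1.89. Cdk1 changed by -1.22 in p2 and -1.21 in pM, with an interval for the difference of -0.82 to 0.80. Hopx (3.30 and 3.56, interval -1.96 to 1.42) and Neurod6 (6.41 and 6.42, interval -2.55 to 2.53) gave values as close, with intervals several log2 units wide. The misses of the threshold therefore do not show equal change.

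Some intervals lay wholly on one side of 0 before adjustment. Arg1 changed by -5.34 in p2 and -1.06 in pM, a difference of -4.28 (95% interval -6.43 to -2.14, limma adjusted p = 0.37). Fam198a changed by 5.86 in p2 and was at 0 in all pM libraries (interval of the difference 2.79 to 8.93, limma adjusted p = 0.49). Isl1, a LIM homeodomain factor of motor neurons, had 346.9 and 529.3 in p2 at D11, against 270.6, 95.13 and 138 at D9 (log2 difference 1.48 ± 0.53, limma adjusted p = 0.16). In pM it changed by -0.92, and the interval of the difference was 0.92 to 3.88 (limma adjusted p = 0.96). Slit1 changed by 1.90 in p2 and 4.18 in pM (interval -4.30 to -0.26, limma adjusted p = 1).

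**Figure D4:**
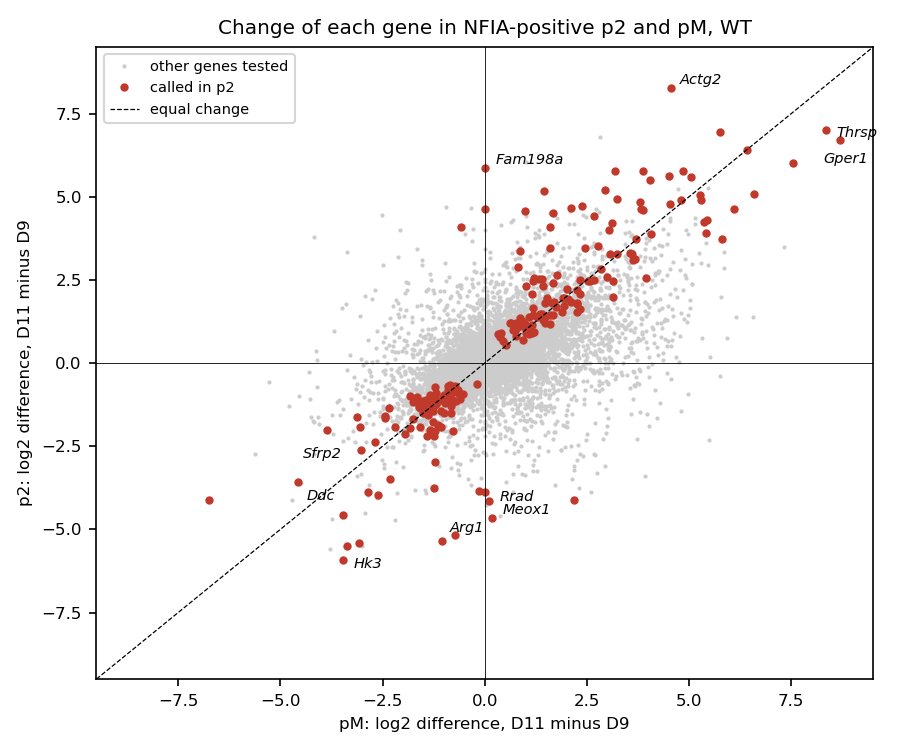
Log2 difference, D11 minus D9, in p2 (vertical axis) against that in pM (horizontal axis) for the 13620 genes tested, with the 223 genes called in p2 in red and the line of equal change dashed. Most red points lie in the lower left and upper right, where both domains changed the same way, and Fam198a, Rrad and Meox1 lie near 0 in pM.

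Markers of other cell types were read beside these results, with the whole list summed in each library. Dorsal progenitor markers summed to 1493 to 2642.8 at D11, against 270.4 to 592.8 at D9, with all 7 tested members above 0 in the fit and Msx3 called. Msx3, a homeobox gene of the dorsal neural tube, had 433.5 and 728.8 at D11, against 20.89, 22.53 and 22.37 at D9 (log2 difference 4.62 ± 0.80, limma adjusted p = 0.00041), a call that held without any 1 library. Mesenchyme and smooth muscle markers summed to 3315.2 to 8814.2 at D11, against 1812.5 to 3643.5 at D9, with 9 of 12 tested above 0 in the fit. Myl9, a myosin light chain of smooth muscle, was called, at 553.9 and 1021 at D11, against 153.8, 91.37 and 156.6 at D9 (log2 difference 2.52 ± 0.45, limma adjusted p = 0.00073, lost without D11 replicate 3). Smooth muscle actin Acta2 had 445.9 and 1324.1 at D11, against 31.34, 23.78 and 91.97 at D9 (limma adjusted p = 0.18), highest in the library where Actg2 was highest. Collagen Col3a1 overlapped, at 796.5 and 2316.1 at D11, against 1499.4, 851.2 and 1157.1 at D9.

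Pluripotent cell markers summed to 252.4 to 552.9 at D11, against 31.29 to 73.12 at D9, mostly from Dppa5a at 183.7 and 365.2 at D11, against 41.78, 10.01 and 29.83 at D9 (limma adjusted p = 0.11). Motor neuron markers summed to 1013.2 to 1466.3 at D11, against 1305.5 to 2786 at D9. Markers of p0 and p1 summed to 1137.2 to 1465.5 at D11, against 542 to 1377.1 at D9, those of p3 and floor plate to 258.7 to 315.7 at D11, against 155.7 to 277.9 at D9, those of neural crest to 383.5 to 691.1 at D11, against 160.2 to 577.3 at D9, and those of ciliated cells to 223 to 330.9 at D11, against 141.7 to 236.4 at D9. Endothelial markers summed to 47.27 to 110 at D11, against 16.27 to 105.6 at D9, and muscle and mesoderm markers to 93.46 to 154.3 at D11, against 70.1 to 146.7 at D9. Of the muscle and mesoderm list Meox1 fell, at 0 and 1.571 at D11, against 47.48, 27.54 and 45.99 at D9 (limma adjusted p = 0.013, lost without D11 replicate 2 or D9 replicate 3). Microglial and macrophage markers were at or near 0, with sums of 0 to 10.21 at D11, against 0 to 8.7 at D9. The part of these markers in the results above was not tested.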

How the data were processed

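Per gene, the authors deposited a signal in normalised read counts; per the submitters' processing notes the authors used mm10 and DESeq2. The aligner, counter and versions are not given in the sources used here. Division by the value of 1 read gave whole reads within 0.01 for 100% of values, and all columns of the table were mapped to samples (0 were left out). Reads without molecular identifiers are not independent molecules, so counting intervals and the floor of 3 reads cover counting error only. Ratios given with a counting interval are of summed recovered reads per total reads of the group, and can differ from the ratio of mean normalised read counts.

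Differences are D11 minus D9 in log2(normalised read count + 1), from limma with a variance trend over all 66 libraries and 26 groups, two-sided, with Benjamini-Hochberg adjustment over 13620 genes at 0.05. The fold scale understates changes of low genes. Alternatives were a pseudocount of 8, other filters, scalings, tests and samples, a replicate block and a correlation between libraries. Intervals at 95% use the normal distribution. In simulated data with known changes, every true call had the right sign, but the share of false calls was above the threshold. The called set as a whole is therefore less certain than the threshold states, and calls near it are less certain than their adjusted p.

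Named genes are the 12 largest called rises and 12 largest called falls with a mean of 50 or more in the higher group, up to 4 called members per list, up to 3 markers per marker list and 20 fixed regulators. The largest rises and falls were taken only among genes whose libraries did not overlap between the days, so that separation is not added support for them. Gene models, Riken clones and pseudogenes were passed over by name. Other genes in the text were chosen after their values were seen. A few genes that the rule or the calls include are not reported here. The members, lists and rule were chosen with earlier results of these data known. Positions are from GENCODE M21 on GRCm38, which held 95.8% of symbols. Python 3.11.15 and matplotlib 3.10.9 made the tables and plots, and R 4.3.3 ran DESeq2 1.42.0, edgeR 4.0.16 and limma 3.58.1.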

Additional observations from a re-analysis of the deposited data

How the results depend on the processing

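All 223 genes called in p2 kept the sign of their fitted difference under every alternative run, but the number of calls did not hold. It was 385 with a pseudocount of 8 (262 higher), 359 without a filter (243 higher), 155 under scaling by total reads (62 lower), 459 with the replicate block (281 higher, 178 lower) and 30 with the high-total libraries left out (16 higher, 14 lower). DESeq2 called 150 lower, and only the groups compared gave 227 (152 higher, 75 lower), of which 107 were among the 223. The fits that left out 1 p2 library called 31 to 261 (19 to 173 higher, 12 to 88 lower), and those that left out 1 pM library called 223 to 235 (126 to 127 higher, 97 to 108 lower). Scaling by total reads moved the median of all genes to 0.23 on the log2 scale. The causes were not tested.

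For the change in p2 minus the change in pM, 0 genes were called, against 8 with a pseudocount of 8, 14 without a filter, 8 with the filter over all libraries, 2 under TMM scaling, 1 with edgeR, 11 with DESeq2, 2 with the replicate block and 16 with correlated libraries, and 0 to 8 when 1 library was left out.

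Same-numbered libraries of D11 and D9 share only a number. Their deviations from the group means correlated at 0.204 for replicate 2 and 0.0117 for replicate 3, but D11 replicate 3 and D9 replicate 1 also correlated at 0.197. With 2 libraries at D11 their deviations mirror each other, so these values cannot show a pairing. The block made 459 calls, with all 223 among them and Nfib called. Over the 11 settings other than leaving out 1 library, single named genes kept their side of the threshold 953 times, lost a call 110 times and gained one 15 times. With edgeR 14 named calls were lost and 1 was gained, and with only the groups compared 18 were lost and 4 gained. Leaving out 1 of the 5 libraries lost 8 to 41 calls. With 2 libraries at D11, each call rests heavily on both.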

Other observations

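Of the 21 calls that held whichever of the 5 libraries was left out, 11 concern genes outside the naming rule, and those described here were chosen after their values were seen. Slc15a2, a transporter that takes up short peptides and is found in astrocytes, had 1594.7 and 891.4 normalised read counts at D11, against 48.43, 32.54 and 42.26 at D9 (log2 difference 4.84 ± 0.71, limma adjusted p = 3.6e-05). Pygb, the brain form of glycogen phosphorylase, had 2688.2 and 2918.4 at D11, against 530.8, 410.6 and 288.3 at D9 (log2 difference 2.81 ± 0.43, limma adjusted p = 5.1e-05). Serpine2, a secreted inhibitor of serine proteases, had 20626.9 and 22992.5 at D11, against 8695.2, 5854.2 and 7131.5 at D9 (log2 difference 1.61 ± 0.25, limma adjusted p = 5.4e-05). Vps37b, a subunit of the endosomal sorting complex ESCRT-I, had 2355.5 and 2314.5 at D11, against 758.7, 593.3 and 643.8 at D9. Slc39a12, a zinc transporter, had 27.65 and 44.77 at D11 and 0 in all D9 libraries, and Nwd1 had 29.43 and 34.56 at D11 and 0 in all D9 libraries.

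The falls in this set were Mapk12, a p38 kinase, with 347.8 and 384.8 at D11, against 1197.4, 1334.3 and 1700.2 at D9, and Psrc1, a protein of the mitotic spindle, with 1383.3 and 1952.4 at D11, against 3993.9, 3937.9 and 4225.7 at D9. Metap1, which removes the first methionine of new proteins, had 1537.6 and 1459.2 at D11, against 2910.4, 3514.8 and 2807.6 at D9. Cga, the common subunit of the glycoprotein hormones, had 0 in both D11 libraries, against 42.73, 33.8 and 59.66 at D9. Slc39a12, Nwd1 and Cga were not called by edgeR (adjusted p = 0.2, 0.19 and 0.11). Of all 21, 18 were also called by edgeR, 11 without the libraries of high total, and 21 had a fitted change of the same sign in pM.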
